A study of Mus musculus with 2 samples.

Results

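The miR-34 and miR-449 family consists of small RNAs that share 1 seed, the stretch of bases 2 to 8 with which a microRNA (miRNA) pairs to its target messenger RNAs. It was followed here in the intestine of mouse embryos. The members are the rows of both deposited count tables whose Ensembl identifier is annotated as Mir34a, Mir34b, Mir34c or Mir449a, which gives 4 of 1973 gene rows. All 4 were found in both tables.

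The data are microRNA-seq libraries of RNA under 30 nucleotides from whole intestine of healthy B6NCrl embryos at embryonic day 16.5, pooled over males and females. The labels give 1 group of 2 biological replicates, which carry separate tissue sample entries and the same donor entry. Replicate 2 was pooled from 41 embryos, and the labels of replicate 1 give no number. With 1 group and no treated or mutant sample, the comparisons are among the family's genes, with other miRNA genes, and between the replicates. Reads counted in the sense of a miRNA gene numbered 4261976 in replicate 1 and 5680764 in replicate 2. Levels are these counts scaled to the library total (CPM). A gene with 0 counts is given the limit of 3 counts, which equals 0.704 CPM in replicate 1, while in replicate 2 it equals 0.528 CPM. Intervals and limits describe counting error only. They treat each read as independent, but PCR duplicates were not marked, so they may be too narrow. The same limit holds for the test between replicates below.

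Mir34a is a direct transcriptional target of the tumour suppressor p53 and, when induced, slows the cell cycle and favours apoptosis. The Mir34b and Mir34c pair is also activated by p53, and together with the miR-449 genes it is best known from multiciliated epithelia such as airway, oviduct and ependyma. In those cells the miRNAs repress the centriole protein Cp110 and Notch pathway genes, and mice that lack the miR-34b/c and miR-449 loci have defects of motile cilia. Because the members share a seed, they are expected to repress overlapping sets of messages.

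The mature sequences, from RefSeq (build GRCm38.p6), are shown because the shared seed defines the family and the rest of each molecule tells the members apart. Capitals mark the seed, and each sequence reads 5′ to 3′.
mmu-miR-34a-5p: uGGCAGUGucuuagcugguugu
mmu-miR-34b-5p: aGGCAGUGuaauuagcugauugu
mmu-miR-449a-5p: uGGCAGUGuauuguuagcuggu
mmu-miR-449c-5p: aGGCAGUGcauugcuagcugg
mmu-miR-34b-3p: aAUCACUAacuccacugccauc
mmu-miR-34c-3p: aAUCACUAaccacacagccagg

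The sequences of the 5p arm shown, those of Mir34a, Mir34b, Mir449a and Mir449c, hold the seed GGCAGUG. The sequences of mmu-miR-34c-5p and of Mir449b are not shown here, so Mir34c appears by its 3p arm only. Set base against base from the 5′ end, miR-449a-5p and miR-34a-5p were identical over the first 9 bases and at 15 of 22 positions. The miR-449c-5p and miR-449a-5p sequences were identical at 18 of 21 positions, and miR-34b-5p and miR-34a-5p at 11 of 22. No gap was allowed, and miR-34b-5p has 23 bases against 22 in miR-34a-5p. An extra base puts all later positions out of step, so the 11 of 22 can understate how much these sequences share. The opposite arms of the chromosome 9 genes, miR-34b-3p and miR-34c-3p, were identical over their first 10 bases, seed included, and at 17 of 22 positions. None of the 6 sequences occurred whole in the hairpin of another gene. The longest stretch that any of them shared exactly with another hairpin was 11 bases. The counts are per gene, so they do not separate the arms of a hairpin.

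The members lie at 3 loci (mm10). Mir34a occupies chr4:150068454-150068555 on the plus strand, where its last 17 bases overlap Gm37795, a transcript of unsettled type. Mir34c (chr9:51103034-51103110) and Mir34b (chr9:51103562-51103645) lie 451 bases apart on the minus strand, in an intron of the protein-coding gene Btg4, which runs on the other strand. Mir449a (chr13:113037534-113037624) lies on the plus strand in an intron of Cdc20b, a gene read in the same direction, 35 bases from Mir449b and 1442 bases from Mir449c. No other row of the count tables overlapped any of these genes, and none of the 4 members had a read on the opposite strand in either library.

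All 4 genes were detected in both libraries, at low to moderate levels. Mir34c, the second gene of the chromosome 9 pair, was the most abundant, with 1550 counts (364 CPM, exact Clopper-Pearson 95% interval 346 to 382) in replicate 1 and 2016 counts (355 CPM, 340 to 371) in replicate 2. The intervals of the libraries overlap, and the mean was 359 ± 6.22 CPM (SD, n = 2). Mir34a, the p53-responsive single gene on chromosome 4, had 721 counts (169 CPM, 157 to 182) in replicate 1 and 1065 counts (187 CPM, 176 to 199) in replicate 2. Its mean was 178 ± 12.9 CPM, below Mir34c in both libraries.

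Mir449a, the gene most closely tied to multiciliated cells, had 267 counts (62.6 CPM, 55.4 to 70.6) in replicate 1 and 390 counts (68.7 CPM, 62.0 to 75.8) in replicate 2, a mean of 65.6 ± 4.25 CPM. Mir34b was the lowest member, with 92 counts (21.6 CPM, 17.4 to 26.5) in replicate 1 and 76 counts (13.4 CPM, 10.5 to 16.7) in replicate 2, a mean of 17.5 ± 5.80 CPM. It is the only member with fewer counts in replicate 2, the deeper library, and its levels spread most widely relative to the mean. The order Mir34c, Mir34a, Mir449a, Mir34b was the same in both libraries, and no neighbours in it overlapped between libraries. With 2 values per gene, an exact permutation test over libraries cannot pass 0.05, so the order rests on this separation and on the counting intervals.

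**Figure D1:**
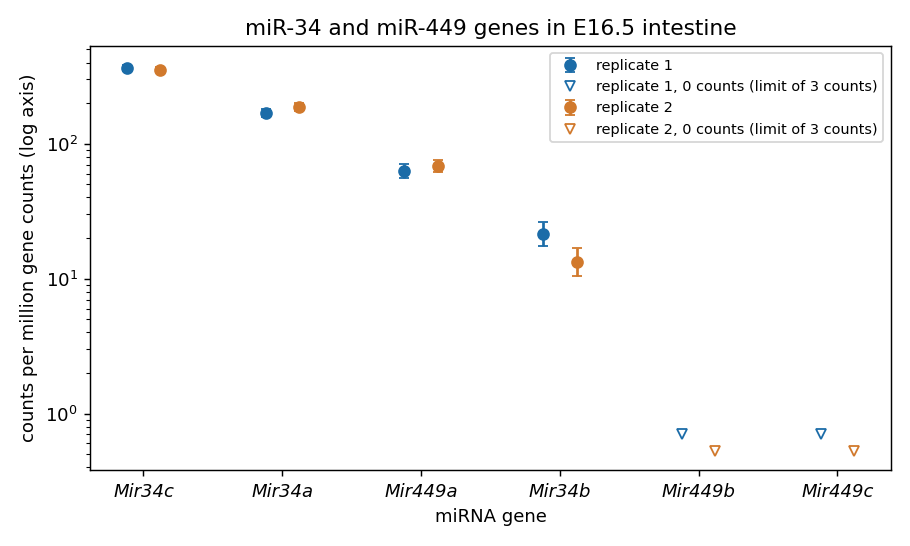
Level of each miR-34 and miR-449 gene in replicate 1 and replicate 2, in CPM on a log axis, with exact 95% intervals as bars. The members fall in steps from Mir34c (364 and 355 CPM) to Mir34b (21.6 and 13.4 CPM), and open triangles give the limit of 3 counts for Mir449b and Mir449c, which had 0 counts.

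Mir449b and Mir449c, which lie in the same intron as Mir449a, had 0 counts on either strand in both libraries. Set against the limit of 3 counts in each library, Mir449a was at least 89-fold higher than either neighbour in replicate 1 and at least 130-fold higher in replicate 2. At this depth the result says that Mir449b and Mir449c were not detected, not that they are absent. Within the Mir449 intron the reads therefore came from 1 of 3 annotated hairpins. Neighbours with 0 counts were common: 225 rows lay less than 10 kb on the same strand from a row at or above the level of Mir449a. Of these, Mir449b and Mir449c included, 65 (28.9%) had 0 counts in both libraries. Multimapping reads enter no gene count, so a row with near-identical copies elsewhere can stand at 0 without being silent. The rows are therefore not all alike to Mir449b and Mir449c. This background was chosen after the members' values were seen.

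Because members are compared inside a library, their proportions do not depend on depth or scaling. The 4 genes together held 2630 counts in replicate 1 and 3547 in replicate 2, which is 0.0617% (0.0594 to 0.0641) and 0.0624% (0.0604 to 0.0645) of all gene counts. The mean of 0.0621% ± 0.000516 (n = 2) gives a family share of the counts that was nearly the same in both libraries. With trimmed mean of M values (TMM) scaling, which sets the libraries against each other over genes with at least 20 counts summed, the total stood at 590.0 CPM in replicate 1 and 653 CPM in replicate 2. Mir34c made up 58.9% (57.0 to 60.8) of that total in replicate 1 and 56.8% (55.2 to 58.5) in replicate 2. Mir34a made up 27.4% (25.7 to 29.2) and 30.0% (28.5 to 31.6), and Mir449a 10.2% (9.02 to 11.4) and 11.0% (9.98 to 12.1). For these 3 genes the intervals of the libraries overlap. Overlap does not show that a share was equal, and the difference in share between the libraries was not tested.

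Mir34b made up 3.50% (2.83 to 4.27) of the family total in replicate 1 and 2.14% (1.69 to 2.67) in replicate 2, and here the intervals do not overlap. Grouped by locus, the chromosome 9 pair held 60.7% ± 2.44 of the total, Mir34a 28.7% ± 1.85 and the Mir449 locus 10.6% ± 0.596 (n = 2 each). Most family reads thus came from the chromosome 9 locus, and nearly all of those came from Mir34c.

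**Figure D2:**
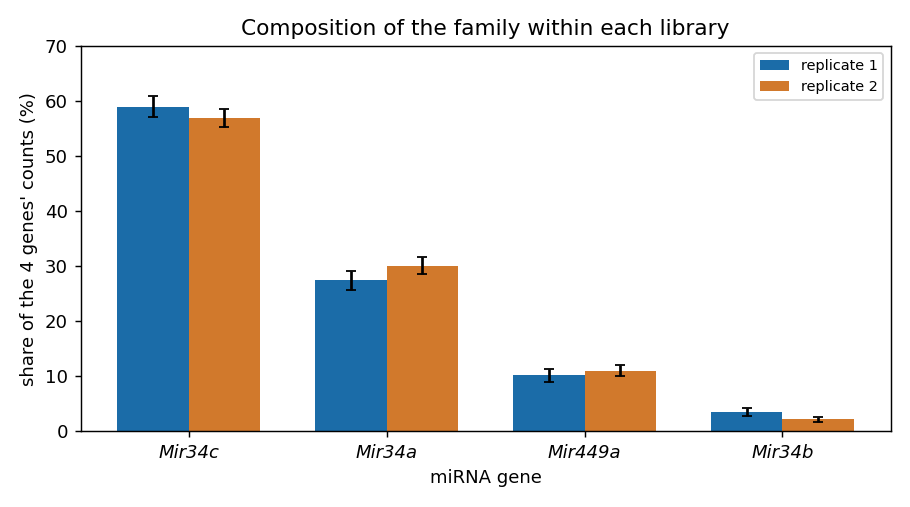
Share of the 4 genes' summed counts held by each gene, in percent, for replicate 1 and replicate 2, with exact 95% intervals as bars. Mir34c held 58.9% and 56.8%, and Mir34b, at 3.50% and 2.14%, is the gene whose intervals do not overlap between the libraries.

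The ratios between members show the same pattern. Mir34c stood 16.8 (exact 95% interval 13.6 to 21.02) times above Mir34b in replicate 1 and 26.5 (21.09 to 33.8) times in replicate 2, a mean of 21.7 ± 6.84. These genes are 451 bases apart on 1 strand, so neighbouring hairpins differed by more than 10-fold in counts in both libraries. Mir34a had 0.465 (0.425 to 0.508) times the counts of Mir34c in replicate 1 and 0.528 (0.490 to 0.569) times in replicate 2. Mir34a had 2.700 (2.34 to 3.12) times the counts of Mir449a in replicate 1 and 2.73 (2.43 to 3.07) times in replicate 2, the most stable of the ratios (2.72 ± 0.0215). Mir449a had 2.90 (2.28 to 3.72) times the counts of Mir34b in replicate 1 and 5.13 (4.004 to 6.65) times in replicate 2. The ratios are of counts: a bias of cloning or sequencing that both libraries share would not appear in the spread between them, and multimapping reads enter no gene count.

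Among all miRNA genes the members ranked far below the most abundant ones. By mean CPM, Mir34c ranked 135, Mir34a 165, Mir449a 212 and Mir34b 268 of 1973 rows, of which 716 had a count in either library. The highest gene, the smooth muscle miRNA Mir143, had 177010 and 170594 CPM in replicates 1 and 2. The rows with at least 20 counts summed over both libraries had a median of 129 CPM, so that Mir34c and Mir34a lay above it and Mir449a and Mir34b below. The ranks of the members between libraries were 138 and 130 for Mir34c, 172 and 159 for Mir34a, 217 and 209 for Mir449a, and 263 and 272 for Mir34b, in replicates 1 and 2.

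**Figure D3:**
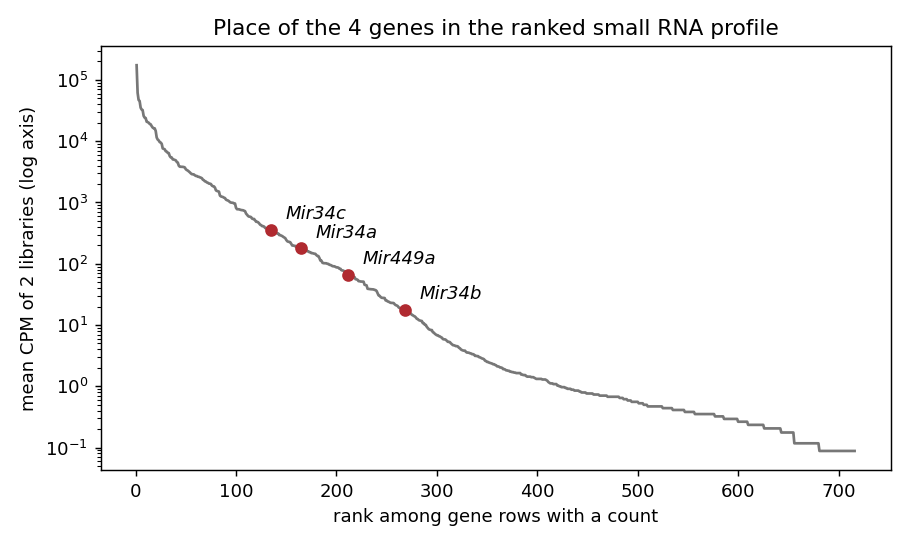
Mean level of every gene row with a count, in CPM on a log axis, ordered by rank, with the 4 members marked in red. The members sit between rank 135 (Mir34c) and rank 268 (Mir34b), in the upper part of the 716 rows with a count.

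The rows nearest to each member in level were found by the distance in log2(CPM + 1) over the 2 libraries, which measures likeness of level only. Mir34a lay closest to Mir187 (distance 0.0418), Mirlet7a-2 (0.0449) and Mir148b (0.0872). Mir449a lay closest to Mir301b (0.0636), Mir30c-1 (0.126) and Mir206 (0.156), a skeletal muscle miRNA. Mir34c lay closest to Mir671 (0.129), Mir501 (0.130) and Mir339 (0.131), and Mir34b to Mir193a (0.162), Mir378c (0.169) and Mir1198 (0.169).

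The tissue label was checked against marker miRNAs. All 10 gut epithelial markers were detected in both libraries and held 10.8% and 12.3% of the gene counts in replicates 1 and 2. The 5 smooth muscle and mesenchyme markers held 18.5% and 17.7%, and Mir143, at 177010 and 170594 CPM, gave nearly all of that share. The endothelial Mir126a held 3.08% and 3.36%, and 4 blood markers 0.142% and 0.123%. The neural markers held 0.143% and 0.167%, with Mir9-2, Mir124a-2 and Mir124a-3 at 0. Of 6 neural rows, 2 were detected in both libraries, and Mir137, at 1421 and 1663 CPM, gave nearly all of the neural share. The Mir9 and Mir124a markers are numbered copies, and multimapping reads enter no gene count, so a count of 0 does not show absence. The markers of multiciliated epithelium are 5 miR-34 and miR-449 genes, of which Mir34b, Mir34c and Mir449a were detected and held 0.0448% and 0.0437%, while Mir449b and Mir449c were at 0. Since Mir34b, Mir34c and Mir449a are themselves members, this list is no independent check of a cell type. In whole tissue, fewer cells of a type and less RNA per cell cannot be told apart.

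Other miRNAs linked to p53, as transcriptional targets or through processing, were each more abundant than any member of the family. A list of 13 such genes had 12 with a row, and all 12 stood above Mir34c, by mean CPM in a range whose lower end was Mir205 (762 ± 110 CPM), a miRNA of stratified epithelium, and whose upper end was Mir143. The list median was 3294 CPM. Among all 364 genes tested between the replicates, 229 lay below Mir34c. Mir192, Mir194-1, Mir194-2, Mir215, Mir200c, Mir141, Mir143 and Mir145a are also markers of gut epithelium or of smooth muscle and mesenchyme here. Control by p53 and abundance in the tissue therefore cannot be told apart in this comparison. Mir107, which lies in a pantothenate kinase gene, had 1146 and 1034 CPM in replicates 1 and 2, and Mir15a, a repressor of Bcl2 and cyclins, had 2420 and 2725 CPM. Mir16-1 (1124 and 1028 CPM) has an identical mature copy at another locus, so its count is uncertain.

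The gut clusters of Mir192, Mir194-1, Mir194-2 and Mir215, which are also p53-linked and mark intestinal epithelium, allow a comparison of 4 genes with 4. The miR-34 and miR-449 genes held 0.0621% ± 0.000516 of the counts, against 3.86% ± 0.914 for the gut clusters (n = 2 each). The family's counts thus amounted to 1.92% of those of the gut clusters in replicate 1 and 1.39% in replicate 2. The family held nearly the same share of the counts in both libraries, while the gut clusters held 3.21% of the counts in replicate 1 and 4.51% in replicate 2. Mir194-1 and Mir194-2 encode an identical mature miRNA, so their counts lack multimapping reads.

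The replicates were compared for each gene by an exact binomial test, two-sided and conditional on the summed count, with TMM scaling and Benjamini-Hochberg adjustment over the 364 genes with at least 20 counts summed. All 4 members passed that minimum, and 3 of the 4 differed between the libraries by more than counting error, against 51.9% of all genes tested. Log2 ratios are given as replicate 1 over replicate 2, with the counting error. Mir34a was lower in replicate 1 (log2 ratio -0.28 ± 0.07, adjusted p of the exact test 0.000205), as was Mir449a (-0.26 ± 0.11, adjusted p of the exact test 0.0451). Mir34b was higher in replicate 1 (0.56 ± 0.22, adjusted p of the exact test 0.0269). Mir34c did not pass (-0.09 ± 0.05, adjusted p of the exact test 0.0987).

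Mir34b was the member higher in replicate 1 among the 3 that passed. Its ratio is not unusual in size among all genes, since 65 of the 364 genes (17.9%) had a log2 ratio at least as far from 0. Those 364 include genes with few counts, whose ratios scatter more. Of the 45 genes with 100 to 300 counts summed, Mir34b among them, 11 (24.4%) passed the test. Their median distance of the log2 ratio from 0 was 0.348. The median of the 4 members was -0.18 and that of all genes tested was 0.02. After TMM scaling no member reached a 1.5-fold difference, against 11% of all genes tested that passed the test and reached it. With total counts in place of TMM, which moves every ratio by 0.13, only Mir34b passed (0.69, adjusted p of the exact test 0.00487) and Mir34c turned to 0.035. The test compares 2 libraries and not conditions, and sets a difference against counting error rather than against the spread expected between pools.

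**Figure D4:**
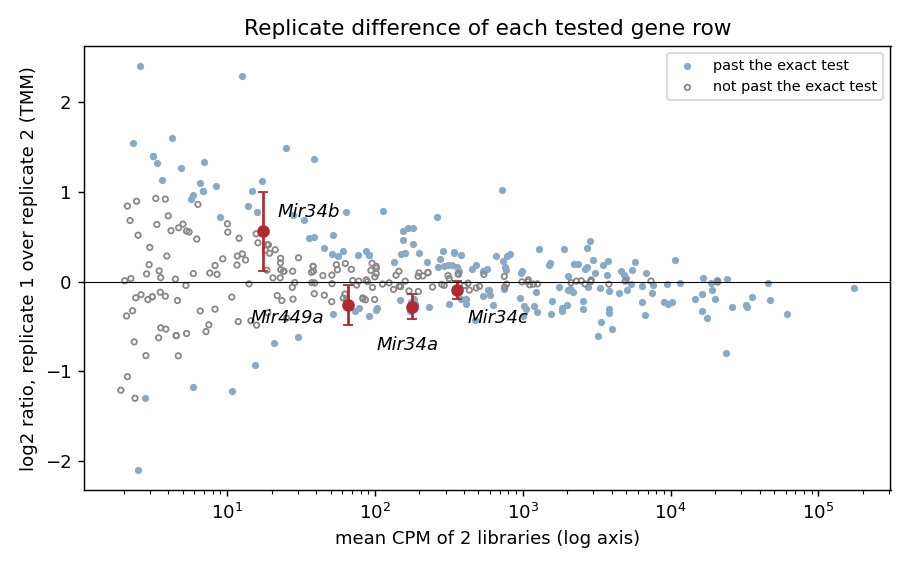
Log2 ratio of replicate 1 over replicate 2 after TMM scaling against mean CPM on a log axis, for the 364 genes tested, filled where they passed the exact test. The members are in red with 95% bars of counting error: Mir34b (0.56) lies above 0, Mir449a (-0.26) and Mir34a (-0.28) lie below it, and Mir34c (-0.09), which turns to 0.035 with total counts, did not pass.

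Of the 12 p53-linked genes tested, 8 were higher in replicate 2 and 2 in replicate 1. Over all genes tested these shares were 24.5% and 27.5%. The shares are not at like depth: the median level was 3294 CPM for the list and 129 CPM for all genes tested. The test covers counting error only, so smaller ratios pass at higher counts, as for Mir143 (-0.08) and Mir200c (-0.09). Mir192, Mir194-1, Mir194-2 and Mir215 form the gut clusters, so the 12 genes are not independent of each other. The list median was a log2 ratio of -0.11. Those with the lowest ratios were the gut cluster genes Mir215 (-0.79), Mir194-1 (-0.60) and Mir194-2 (-0.52), followed by the miR-200 family gene Mir141 (-0.45). Higher in replicate 1 were Mir205 (0.17) and Mir145a (0.14), a smooth muscle miRNA, and Mir107 (0.02) and Mir16-1 did not pass. With total counts, 5 of the 12 were higher in replicate 2 and 6 in replicate 1. Over all genes tested, 46 were then higher in replicate 2 and 164 in replicate 1. The list median was 0.020. Total counts move every ratio by the same amount, so the distance between the list and the other genes stays as with TMM. With TMM scaling, the ratios of Mir34a and Mir449a lay between those of the list genes Mir15a (-0.30) and Mir192 (-0.13).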

How the data were processed

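For 2 libraries, the authors deposited read counts per gene that were not normalized. The assembly was mm10 and the annotation GENCODE M4, per the file headers in the readmes. No aligner or counter is given in the sources used here. Column 3 (reads on the strand of the gene) was used. The 4 leading rows name no gene and were left out. Counted without strand, 19.5% and 17.2% of reads in replicates 1 and 2 were unmapped, 26.2% and 25.7% had more than 1 match in the genome, 3.69% and 2.88% fell in no annotated gene, and 0 were ambiguous.

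CPM were computed over all gene rows. Symbols and coordinates came from GENCODE M21, which held 1894 of the 1973 identifiers. Intervals are exact Clopper-Pearson 95% intervals. With 2 libraries, 1 on each side, no residual degrees of freedom are left for edgeR's quasi-likelihood test, so the replicates were compared with the exact binomial test, a minimum of 20 counts summed, a prior of 0.5 counts in log2 ratios, and TMM factors (edgeR 4.0.16) from the rows past that minimum. The test was tested on simulated data. Alternatives were the unstranded counts, other totals, TMM, DESeq2 1.42.0 size factors, count minimums of 1 and 100, a prior of 5, a 1.5-fold minimum and each library alone. TMM factors from all rows were added after seeing the data. Members and lists were chosen with earlier results of these data known.

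Genes named are the members, rows with their seed, the p53-linked list, the 3 rows nearest each member in level, the most abundant gene and the markers. Mir605, Mir9-1 and Mir142 were not analysed here. Python 3.11.15, scipy 1.17.1 and R 4.3.3 were used.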

Additional observations from a re-analysis of the deposited data

How the results depend on the processing

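Unstranded counts could not change the order of the 4 members or the proportions within the family, because no member had a read on the opposite strand. Leaving out 1 replicate gives back the values of the other library, so it adds no separate check. Levels ranged from 169 to 187 CPM for Mir34a, 13.4 to 21.6 for Mir34b, 355 to 364 for Mir34c and 62.6 to 68.7 for Mir449a. The family share ranged from 0.0617% to 0.0624%. Without the most abundant gene in the total, which raises every level, Mir34a stood at 216 CPM, Mir34c at 435 CPM, Mir449a at 79.4 CPM and the family at 0.0751% of the counts. With unstranded counts, which enlarge the total, Mir34c stood at 346 CPM and the family at 0.0598%, and the ranks of Mir34c, Mir449a and Mir34b were 144, 223 and 278. The calls between replicates depended on the scaling. With total counts, 1 member passed in place of 3: Mir34a (log2 ratio -0.15, adjusted p of the exact test 0.0570) and Mir449a (-0.13, adjusted p of the exact test 0.325) no longer passed, and Mir34c reversed to 0.035. Mir34c passed with DESeq2 size factors (-0.11), with no filter on low counts (-0.13) and with TMM over all rows (-0.13). No filter and TMM over all rows use the same TMM factors, so they do not count as separate scalings. Mir34b did not pass with no filter (0.52, adjusted p of the exact test 0.0741), nor Mir449a with unstranded counts (-0.25, adjusted p of the exact test 0.0601). The cause was not tested. With total counts 164 genes were higher in replicate 1 and 46 in replicate 2, in place of 100 and 89, and of the p53-linked genes 6 and 5, with a median of 0.020. With TMM scaling, a 1.5-fold minimum left 0 members and 40 genes, 31 higher in replicate 1 and 9 in replicate 2. The log2 ratio of Mir34b with total counts, 0.69, is past 1.5-fold. Mir34b rests on 92 and 76 counts, so its ratios carry the widest counting intervals. No paired analysis was possible because the design holds 1 group.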

Other observations

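The gap between Mir34c and Mir34b was set beside those of other neighbouring miRNA genes. This comparison was chosen after the members' values were seen. Over 94 pairs of adjacent genes on 1 strand less than 10 kb apart, each with at least 20 counts summed, the median fold between neighbours was 7.33. Mir34c over Mir34b, at 20.6 by mean CPM, was reached or exceeded by 30 of the 94 pairs, that pair included (31.9%). Some of these pairs hold genes with near-identical copies elsewhere, whose counts lack multimapping reads, so the pairs are not all alike to Mir34c and Mir34b.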
